A study of Mus musculus with 12 samples.

Results

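Haem is the iron-porphyrin group of myoglobin, of the respiratory cytochromes and of catalase. It is also the ligand of the REV-ERB nuclear receptors. The 9 genes described here were chosen by name: 7 enzymes of haem synthesis (Alas1, Alas2, Alad, Uros, Urod, Cpox and Fech) and both haem oxygenases (Hmox1 and Hmox2). All 9 were found among the 14270 genes of the deposited table, and all 9 were among the 9953 that were tested, those averaging 1 FPKM or more. FPKM stands for fragments per kilobase of transcript per 1000000 fragments.

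RNA had been sequenced from the tibialis anterior, a fast muscle of the lower leg, of WT mice and of mice in which the Rev-erbs were knocked out (KO) in skeletal muscle. The 12 libraries form 4 groups of 3, namely WT at ZT10, KO at ZT10, WT at ZT22 and KO at ZT22, where ZT is zeitgeber time in hours after lights on. The titles give these times and the design text gives ZT0 and ZT12, which leaves the hour of each group open to doubt. The Cre driver, strain, sex and age are not given in the labels, nor is it stated whether replicates came from separate animals, so the p-values measure the spread between these libraries. A whole muscle also holds blood, vessels, nerve and macrophages besides its fibres, and these libraries do not separate them.

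Synthesis starts and ends in the mitochondrion. Aminolevulinate synthase joins glycine and succinyl-CoA, and this step sets the rate in most tissues: ALAS1 does so in all cells and ALAS2 in developing red cells. In the cytosol ALAD makes porphobilinogen, and further on UROS closes the ring and UROD trims its side chains. CPOX and PPOX then oxidise the porphyrinogen in the mitochondrion and FECH inserts iron. Heme oxygenases open the ring to biliverdin, iron and carbon monoxide. HMOX1 is induced by haem and oxidants, and HMOX2 is made constitutively.

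The promoters of Alad and Urod are shown because these 2 genes shared a pattern over the 12 libraries, described below, and because both hold an E-box, the letters CACGTG bound by CLOCK, BMAL1 and NPAS2 among other factors. The sequences are from RefSeq promoter windows of 250 bases before to 50 bases after a transcript start (GRCm38.p6), on the minus strand, written 5′ to 3′ with the E-box in capitals. Alad has windows for 2 starts, each with its own E-box, and Urod has 1.
Alad, chr4:62519919-62519962: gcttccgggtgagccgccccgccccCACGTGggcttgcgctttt
Alad, chr4:62520138-62520193: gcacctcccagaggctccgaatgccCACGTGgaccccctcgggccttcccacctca
Urod, chr4:116994432-116994487: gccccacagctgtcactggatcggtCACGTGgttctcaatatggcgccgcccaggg
The E-box of Alad began 28 bases before one start and 105 bases before the other, and that of Urod 49 bases before its start. Windows were given for 7 of the 9 genes, 12 in all. Fech and Hmox1 had no window, so their promoters were not searched for any motif. Of these, 4 windows of 3 genes held CACGTG; the further one was a window of Uros, at its far edge 250 bases before the start. Over all 32851 windows of the table, 7.15% held these letters.

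Alas1 is shown for a second motif, part of the element of NRF1, a factor that acts on many mitochondrial genes. The letters searched were GCATGCGC on both strands, and 2 overlapping matches make up the capitals.
Alas1, chr9:106247906-106247935: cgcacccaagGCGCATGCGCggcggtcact
These bases lie on the minus strand within an annotated exon, upstream of one Alas1 start and downstream of the other. The letters occurred in 2.71% of all windows. The core of the REV-ERB and ROR element (TAGGTCA, 2.61% of all windows), the D-box (TTATGTAA, 0.938%) and the antioxidant response element (TGACNNNGC, 12.4%) were not found in the 12 windows. These windows hold no promoter of Fech or Hmox1. A match of letters describes the sequence and shows no binding.

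Levels are given in FPKM, which is per transcript length and so allows genes to be compared. Fech had the highest mean over the 12 libraries, 89.8 ± 9.20 FPKM (SD, n = 12), followed by Alas1 at 54.8 ± 14.7, Urod at 28.5 ± 4.49 and Hmox2 at 24.9 ± 2.60 FPKM. Alad, Cpox and Uros lay close together at 12.6 ± 2.74, 11.5 ± 0.975 and 11.1 ± 2.60 FPKM. Hmox1 at 6.18 ± 3.37 and Alas2 at 2.34 ± 1.25 FPKM were lowest. Among neighbours in this order, only Alas1 and Urod, and Hmox2 and Alad, had ranges over the libraries that did not overlap. The ratio of the highest to the lowest library ran from 1.30 for Cpox and 1.37 for Hmox2 to 4.50 for Hmox1 and 5.19 for Alas2. From a rough estimate of 10.94 to 13.7 times 1000000 fragments per library, Alas2 rested on about 22.1 to 115 fragments, Hmox1 on 65.5 to 306 and Fech on 2222 to 3741.

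**Figure D1:**
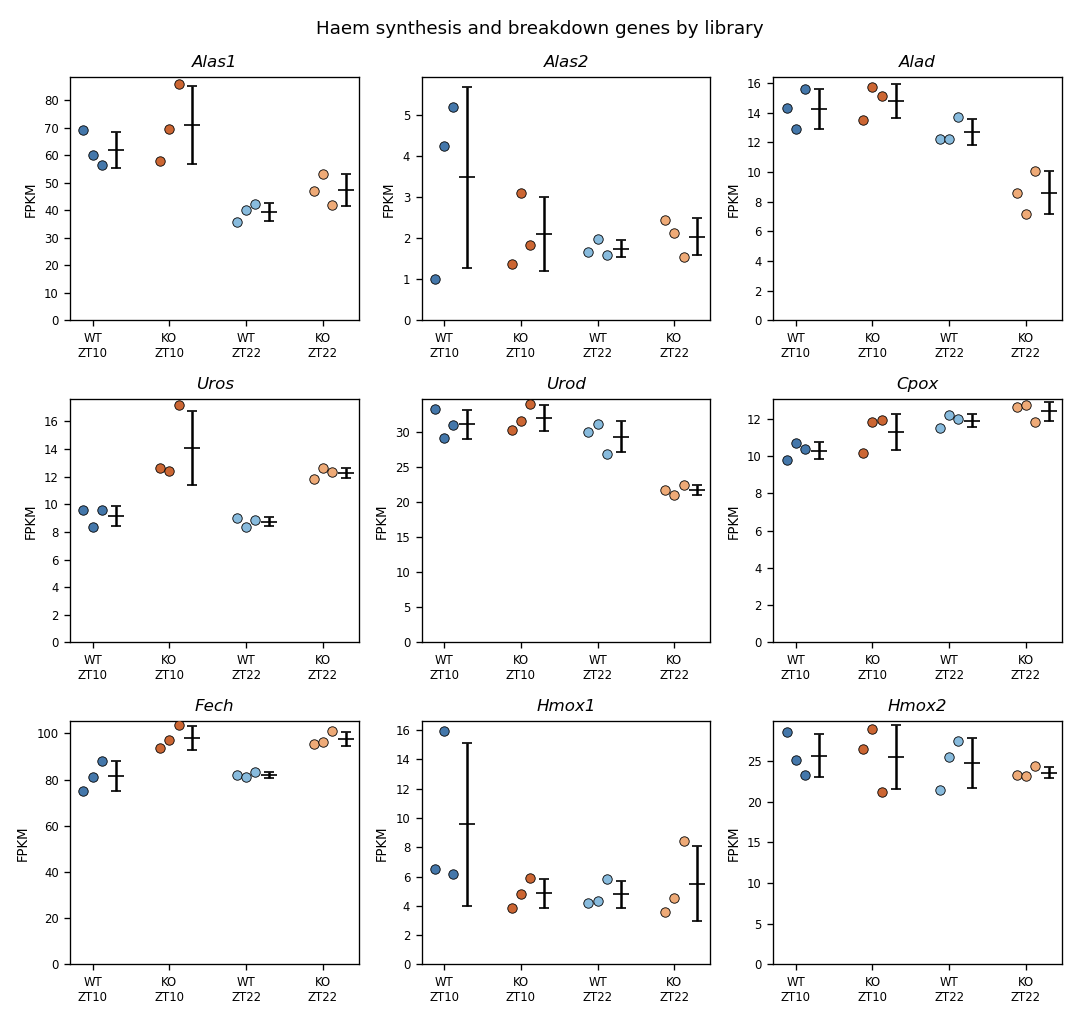
FPKM of each of the 9 genes in each of the 12 libraries, with 1 panel per gene and 3 points per group, beside the group mean ± SD (n = 3). Every vertical axis starts at 0. Uros and Fech lie higher in both KO groups, Alad and Urod lie lower in KO at ZT22, Alas1 lies lower at ZT22 in both genotypes, and Alas2 and Hmox1 spread widely in WT at ZT10.

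The knockout label was checked on the targeted genes. Nr1d1, which encodes REV-ERBα, was higher in the libraries labelled KO. The log2 difference was 3.69 ± 0.15 at ZT10 and 2.85 ± 0.15 at ZT22 (limma adjusted p = 3.19e-08 and 2.5e-07). Nr1d2, for REV-ERBβ, differed by -0.07 ± 0.08 and 0.36 ± 0.08 (adjusted p = 0.593 and 0.0078). These values per gene go against a loss of transcript and cannot show the loss of single exons, so KO is used below only as the label of a library. Arntl, the clock activator BMAL1 and a known target of REV-ERB repression, was higher in the libraries labelled KO by 3.03 ± 0.11 and 1.38 ± 0.11 (adjusted p = 1.34e-08 and 6.12e-06).

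In KO against WT, 2 steps of synthesis were higher at both times and 2 others were lower at ZT22. Uros and Fech rose at ZT10, and no haem gene passed the test as lower. At ZT22 Uros and Fech were again higher and Alad and Urod fell. A gene is called when its p from limma on log2(FPKM + 1), adjusted by Benjamini-Hochberg over all genes tested, is under 0.05; the spread of a gene is estimated from the 12 libraries together. By this rule 2 of 9 were higher and 0 lower at ZT10, where 5.36% of all genes tested were called higher and 8.96% lower. At ZT22, 2 of 9 were higher and 2 lower, beside 7.13% and 11.2% of all genes. The median log2 difference of the 9 was 0.05 at ZT10 and 0.11 at ZT22, beside -0.05 and -0.04 over all genes tested. Log2 differences on this scale understate the change of weakly expressed genes, Alas2 above all, and their errors are SE with n = 3 against 3.

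**Figure D2:**
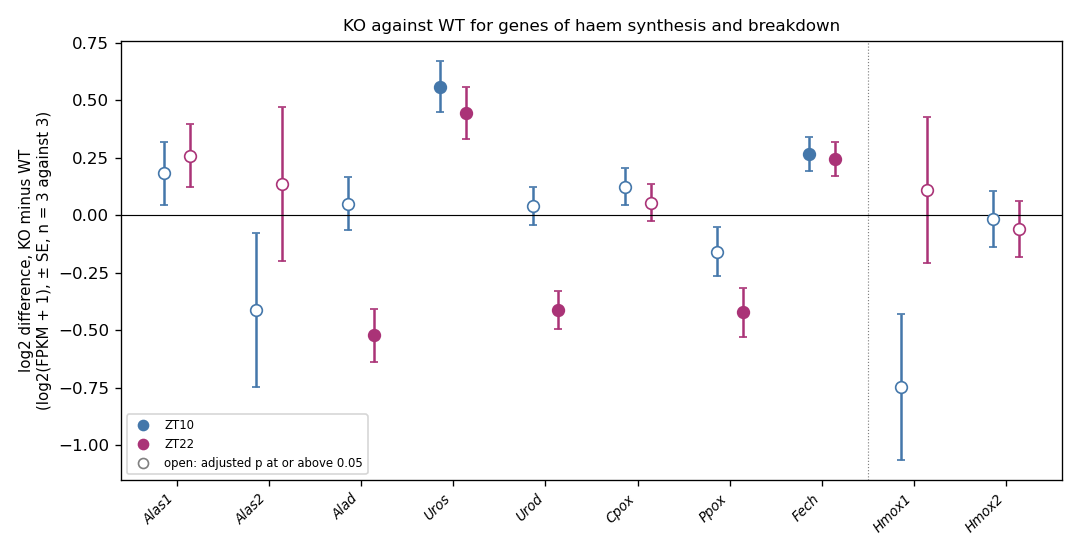
Log2 difference of KO minus WT (log2(FPKM + 1), ± SE, n = 3 against 3) at ZT10 and ZT22, in the order of the pathway, with Ppox added from a wider list and the haem oxygenases right of the dotted line. Filled points passed an adjusted p under 0.05. At ZT22 Alad, Urod and Ppox lie below 0 while Uros and Fech lie above 0.

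Alas1, the synthase of the rate-setting step, followed the time of day. In WT it stood at 69.0, 60.1 and 56.4 FPKM at ZT10 and at 35.8, 40.0 and 42.1 FPKM at ZT22. The libraries labelled KO had 57.7, 69.4 and 85.8 FPKM at ZT10 and 46.9, 53.1 and 41.7 FPKM at ZT22. In each genotype the 3 libraries of ZT22 lay below the 3 of ZT10. Alas1 fell by 0.64 ± 0.14 on the log2 scale in WT (limma adjusted p = 0.00622) and by 0.56 ± 0.14 in KO (adjusted p = 0.0058). The mean fell by 36.5% in WT and fell by 33.4% in KO. Between genotypes the groups overlapped at both times, with differences of 0.18 ± 0.14 (95% interval -0.11 to 0.48) at ZT10 and 0.26 ± 0.14 (-0.04 to 0.55) at ZT22, and neither passed the test (adjusted p = 0.413 and 0.213). These intervals allow a rise of up to 0.48 and 0.55 on the log2 scale. An antisense gene shares 7.53% of the exon bases of Alas1, and the sources used here do not give the strand setting of the counting.

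Alas2, the red-cell synthase on the X chromosome, was scarce. Of its exon bases, 12.9% are shared with Apex2 on the opposite strand, a gene at 2.80 FPKM on average. With the strand setting not given, the level of Alas2 is uncertain. The values of Alas2 were 1.00, 4.24 and 5.19 FPKM in WT and 1.38, 3.10 and 1.82 FPKM in KO at ZT10. At ZT22 they were 1.66, 1.97 and 1.60 FPKM in WT and 2.43, 2.12 and 1.54 FPKM in KO. The WT group at ZT10 held both the lowest and the highest value of all 12 libraries, and Alas2 was called in none of the comparisons. Without WT replicate 1 of ZT10 it would be called lower in KO at ZT10, by -0.92 (adjusted p = 0.0157), and lower at ZT22 in WT, by -1.06 (adjusted p = 0.00921), so 1 library decides both calls.

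Globin transcripts, which come from red cells, are given beside Alas2. The summed FPKM of 4 globin genes (Hba-a1, Hba-a2, Hbb-bs and Hbb-bt) was 513, 1031 and 1375 in WT and 667, 1101 and 676 in KO at ZT10. At ZT22 it was 430.4, 605 and 362 in WT and 529, 519 and 409.8 in KO. The library with the least Alas2 at ZT10 was also the one with the least globin. Per 1000 FPKM of globin, Alas2 stood at 1.95 to 4.11 FPKM in WT and 2.07 to 2.82 in KO at ZT10, and at 3.26 to 4.42 and 3.76 to 4.59 FPKM at ZT22. In KO this ratio was higher at ZT22 with no overlap: globin was lower there, while the Alas2 values of the 2 times overlapped. Of 14 erythroid markers 7 were in the table and 4, the globins, had a mean of at least 1 FPKM. The anion exchanger Slc4a1 stayed at or below 0.14 FPKM and the red-cell factor Klf1 at or below 0.24 FPKM. The summed erythroid markers ranged from 513.5 to 1375 FPKM in WT and from 667 to 1101 in KO at ZT10, and from 362 to 605 and from 409.9 to 529.6 at ZT22. In bulk tissue, fewer cells of a type and less RNA per cell cannot be told apart. The part of red cells in the Alas2 values was not tested.

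**Figure D3:**
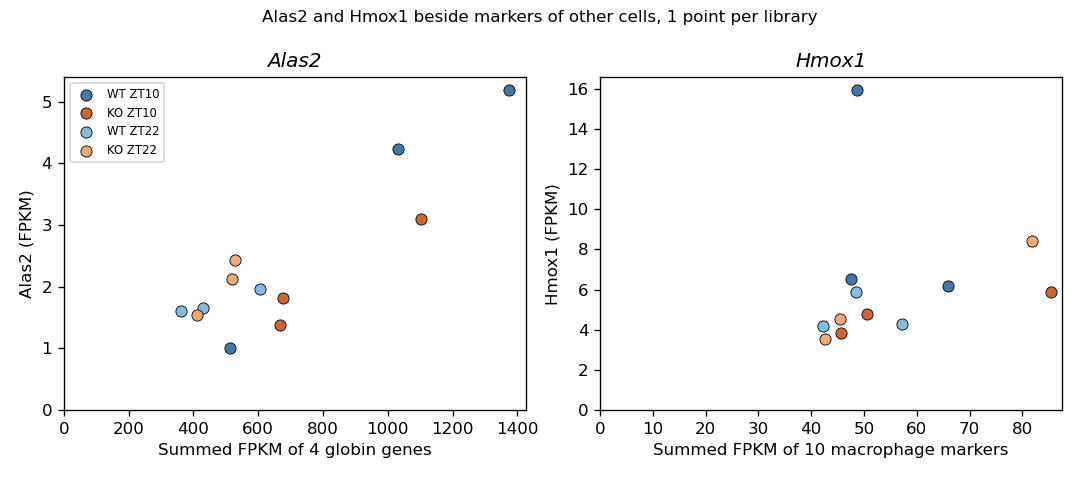
Left, Alas2 against the summed FPKM of 4 globin genes; right, Hmox1 against the summed FPKM of 10 macrophage markers, with 1 point per library (12 libraries in 4 groups) and both axes from 0. The libraries with the most globin, 1375, 1101 and 1031 FPKM, have the 3 highest Alas2 values, while the highest Hmox1 value, 16.0 FPKM, lies at a macrophage sum of 48.6 FPKM.

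Alad, which makes porphobilinogen, was lowest in KO at ZT22. It stood at 14.3, 12.9 and 15.6 FPKM in WT and 13.5, 15.7 and 15.1 FPKM in KO at ZT10. At ZT22 it had 12.2, 12.2 and 13.7 FPKM in WT and 8.59, 7.15 and 10.1 FPKM in KO. The 3 KO libraries of ZT22 were the lowest of the 12. Alad fell by 0.52 ± 0.12 in KO against WT at ZT22 (limma adjusted p = 0.00894), and its mean fell by 32.3%. Between ZT10 and ZT22 it fell by 0.72 ± 0.12 in KO (adjusted p = 0.000442). In WT the difference between times was -0.15 ± 0.12 (adjusted p = 0.364), and at ZT10 that between genotypes was 0.05 ± 0.12 (adjusted p = 0.814).

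Urod, which takes the carboxyl groups off the side chains of the ring, showed the same order of groups at a higher level. At ZT10 it stood at 33.2, 29.1 and 30.9 FPKM in WT and 30.3, 31.6 and 34.0 FPKM in KO. At ZT22 it stood at 30.01, 31.1 and 26.9 FPKM in WT and 21.8, 21.02 and 22.5 FPKM in KO. Again the 3 KO libraries of ZT22 lay below the other 9. Urod fell by 0.41 ± 0.08 in KO against WT at ZT22 (limma adjusted p = 0.00477), a mean that fell by 25.9%, and by 0.53 ± 0.08 from ZT10 to ZT22 in KO (adjusted p = 0.000333). The other differences were -0.08 ± 0.08 between times in WT and 0.04 ± 0.08 between genotypes at ZT10 (adjusted p = 0.497 and 0.789). The calls for KO at ZT22 against WT and against ZT10 share the same 3 KO libraries.

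Whether the genotype difference itself changed between times was tested in the same fit. For Urod the change was -0.45 ± 0.12 (95% interval -0.70 to -0.20, unadjusted p = 0.00192, limma adjusted p = 0.103), and for Alad -0.57 ± 0.16 (-0.93 to -0.22, unadjusted p = 0.0042, adjusted p = 0.134). Neither passed over all genes. Of the 9 genes 0 were called, beside 0.0402% of all genes tested that were called in either direction. An unadjusted p under 0.05 was found for 2 of the 9 and for 1696 of all 9953 genes tested. The lower level at ZT22 is therefore not shown to differ from the genotype difference at ZT10.

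Uros, which closes the porphyrin ring, was higher in KO at both times. It stood at 9.60, 8.32 and 9.55 FPKM in WT and 12.6, 12.4 and 17.2 FPKM in KO at ZT10. At ZT22 the values were 9.02, 8.37 and 8.83 FPKM in WT and 11.8, 12.6 and 12.3 FPKM in KO. All 6 KO libraries lay above all 6 WT libraries. Uros rose by 0.56 ± 0.11 (ZT10, limma adjusted p = 0.0054) and 0.44 ± 0.11 (ZT22, adjusted p = 0.0163), with means 1.54-fold and 1.40-fold those of WT. Without replicate 2 of WT or of KO at ZT22 the adjusted p at ZT22 rose above the threshold, to at most 0.0637, while the difference stayed between 0.42 and 0.47 whichever library was left out. The change of the genotype difference between times was -0.11 ± 0.16 (95% interval -0.46 to 0.23, adjusted p = 0.762).

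Fech, the iron-inserting enzyme, was also higher in KO at both times, by less. It stood at 75.0, 81.3 and 87.9 FPKM in WT and 93.5, 96.9 and 104 FPKM in KO at ZT10. At ZT22 it stood at 81.9, 80.9 and 83.4 FPKM in WT and 95.2, 96.5 and 101 FPKM in KO. The KO libraries lay above the WT libraries at each time, and the nearest values at ZT10 were 87.9 and 93.5 FPKM. Fech rose by 0.27 ± 0.07 at ZT10 (limma adjusted p = 0.0307) and by 0.25 ± 0.07 at ZT22 (adjusted p = 0.0385), with means 1.20-fold and 1.19-fold those of WT. Its calls sat near the threshold: 5 of 18 alternatives ended the call at ZT10 (adjusted p up to 0.147) and 7 of 18 that at ZT22 (up to 0.116), all but 1 of them by leaving out a library. Between times Fech differed by 0.01 ± 0.07 in WT and -0.01 ± 0.07 in KO (adjusted p = 0.906 and 0.947).

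Cpox, the oxidase between UROD and PPOX, varied least. Its values ran from 9.80 to 10.7 FPKM in WT and from 10.2 to 11.9 FPKM in KO at ZT10, and from 11.5 to 12.2 and from 11.8 to 12.7 FPKM at ZT22. In WT the groups of the 2 times did not overlap, yet the difference of 0.19 ± 0.08 did not pass (limma adjusted p = 0.102). In KO against WT it differed by 0.12 ± 0.08 at ZT10 (95% interval -0.05 to 0.30) and 0.05 ± 0.08 at ZT22 (-0.12 to 0.23).

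Hmox1, the inducible heme oxygenase, had 1 library far from the rest. WT at ZT10 read 6.53, 16.0 and 6.18 FPKM and KO at ZT10 read 3.85, 4.80 and 5.88 FPKM. At ZT22 the values were 4.21, 4.30 and 5.86 FPKM in WT and 3.55, 4.56 and 8.42 FPKM in KO. The 3 WT libraries of ZT10 lay above those of KO at ZT10 and of WT at ZT22, by a narrow margin apart from replicate 2. The differences of -0.75 ± 0.32 for KO against WT at ZT10 and -0.76 ± 0.32 for ZT22 against ZT10 in WT did not pass (limma adjusted p = 0.139 and 0.102). Both rested on WT replicate 2 of ZT10: without it they were -0.35 and -0.36. At ZT22 the genotypes differed by 0.11 ± 0.32 (95% interval -0.58 to 0.80).

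Macrophages break down haem and express Hmox1, so their markers are given beside it. All 10 were in the table and 7 had a mean of at least 1 FPKM. Their summed level was 47.6 to 65.9 FPKM in WT and 45.6 to 85.4 in KO at ZT10, and 42.3 to 57.3 and 42.6 to 81.8 FPKM at ZT22. The WT library with 16.0 FPKM of Hmox1 had a sum of 48.6 FPKM, the median of its group. The KO library of ZT22 with 8.42 FPKM had the highest sum of its group, 81.8 FPKM. Lyz2 alone gave 27.25 and 44.57 FPKM of these sums, in that order. The part of macrophages in the Hmox1 values was not tested in any library.

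Hmox2, the constitutive oxygenase, was called in none of the comparisons. It ranged from 23.3 to 28.6 FPKM in WT and from 21.2 to 28.9 in KO at ZT10, and from 21.4 to 27.5 and from 23.2 to 24.3 FPKM at ZT22. All groups overlapped. KO and WT differed by -0.01 ± 0.12 at ZT10 (95% interval -0.28 to 0.25) and -0.06 ± 0.12 at ZT22 (-0.33 to 0.20). Of the exon bases of Hmox2, 40.2% are shared with Cdip1 on the opposite strand, a gene at 42.0 FPKM on average, so with the strand setting not given its level is uncertain.

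Between times of day, 1 of the 9 genes was called lower at ZT22 in WT (Alas1) and 3 in KO (Alas1, Alad and Urod), and 0 were higher in either. Over all genes tested, 18.4% were higher and 5.77% lower in WT, and 28.9% and 13.7% in KO. The median of the 9 was -0.08 in WT and -0.10 in KO, beside 0.09 and 0.11 over all genes. Median-of-ratios scaling brought the all-gene medians to -0.0054 and -0.0013, a shift of about 0.1 in both genotypes. Under that scaling the fall of Alas1 was -0.76 in WT and -0.70 in KO, that of Alad in KO -0.85 and that of Urod in KO -0.67, each still called. Uros was then called lower at ZT22 in KO as well (-0.30, adjusted p = 0.0431, beside -0.17 ± 0.11 and adjusted p = 0.23 without the scaling).

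**Figure D4:**
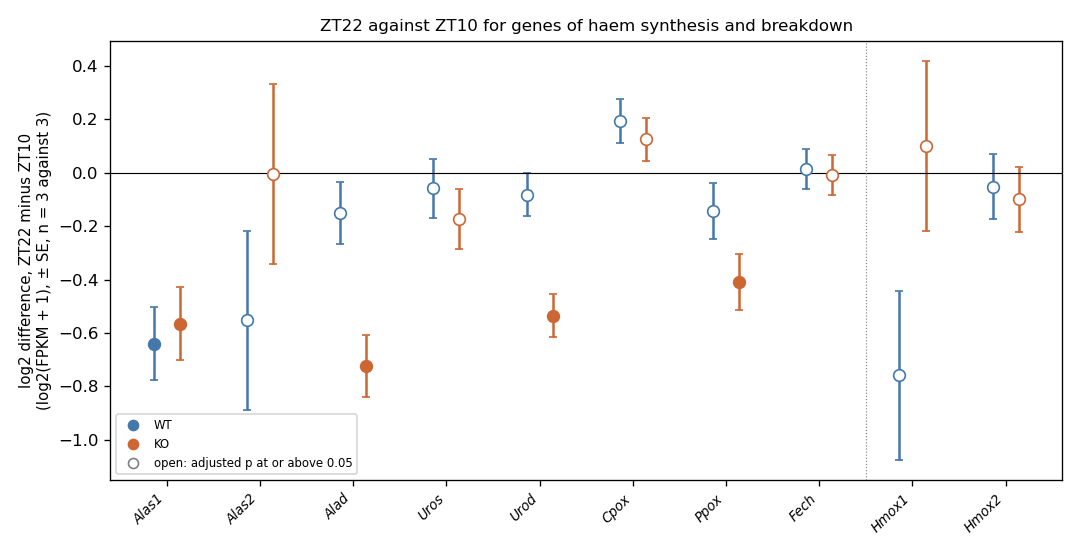
Log2 difference of ZT22 minus ZT10 (log2(FPKM + 1), ± SE, n = 3 against 3) in WT and in KO, in pathway order with Ppox added and the haem oxygenases right of the dotted line. Filled points passed an adjusted p under 0.05. Alas1 lies below 0 in both genotypes, and Alad, Urod and Ppox are filled in KO and open in WT.

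The same scaling moved the balance of calls over all genes, from 533 higher and 892 lower to 744 and 659 for KO against WT at ZT10, and from 710 and 1116 to 911 and 919 at ZT22. For time in WT it moved from 1830 and 574 to 1192 and 1127, and in KO from 2872 and 1367 to 2036 and 2184. The called haem genes of the genotype comparisons kept their direction and call under it. All 11 markers of muscle fibres were in the table, and their sum differed by both factors. It was 115669 to 128910 FPKM in WT and 139612 to 145844 in KO at ZT10, and 89363 to 100614 and 105540 to 111384 FPKM at ZT22. The single markers did not all follow the sum. In KO against WT at ZT10 and ZT22, Mylpf differed by 0.74 ± 0.10 and 0.51 ± 0.10, and Myh1 by -0.89 ± 0.23 and -0.91 ± 0.23. Between times in WT, Acta1 differed by -0.80 ± 0.11 and Myh4 by 0.08 ± 0.09. FPKM are shares of a library, so each gene is measured relative to all its fragments, those of the fibre markers included. The part of the fibre markers in the haem gene results was not tested beyond the scaling above. The 6 endothelial markers summed to 53.4 to 62.6 and 43.2 to 62.7 FPKM at ZT10, and to 88.8 to 114.8 and 79.8 to 90.8 FPKM at ZT22, in WT and KO. The 6 adipocyte markers gave 136.0 to 165.6 and 129.5 to 180.8 FPKM at ZT10 and 168.0 to 236.2 and 145.9 to 176.9 FPKM at ZT22. Most of this sum was Fabp4, which averaged 139 FPKM in WT and 129 in KO at ZT10, and 172 and 149 at ZT22. Adipoq averaged 2.45 FPKM in WT and 4.73 in KO at ZT10, and 5.37 and 3.07 at ZT22. Cfd averaged 10.4 and 19.5 FPKM at ZT10, and 13.0 and 8.10 at ZT22. Neither Adipoq nor Cfd passed between genotypes at either time (limma adjusted p of 0.105 to 0.158). For the 4 Schwann cell markers the sums were 16.8 to 21.9 and 23.7 to 24.99 FPKM at ZT10, and 18.2 to 32.5 and 27.4 to 32.1 FPKM at ZT22.

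The remaining enzymes and transporters of the pathway formed a list of 25 genes, of which 22 were tested. At ZT22, 0 were higher and 6 lower in KO than in WT, beside 7.13% and 11.2% of all genes tested, with a list median of -0.19 beside -0.04 over all genes. The count rested on single libraries: it was 2 without WT replicate 2 of ZT22, 3 without WT replicate 1 or KO replicate 1 of ZT22, and 10 without KO replicate 3 of ZT10. Ppox, the oxidase before ferrochelatase, fell from 5.13 to 3.58 FPKM at ZT22, by 0.42 ± 0.11 (limma adjusted p = 0.0157); it was named after its values were seen, and it shares 17.5% of its exon bases with B4galt3 on the opposite strand. Its call was ended without WT replicate 2, KO replicate 1 or KO replicate 3 of ZT22 (adjusted p up to 0.0723). Of the enzymes described here between ALAS and FECH, Alad, Urod and Ppox were lower in KO at ZT22, Uros was higher and Cpox did not pass.

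Genes of the mitochondrial membranes were also among the 6. Slc25a39, a carrier that brings glutathione into mitochondria, fell by 0.47 ± 0.07 at ZT22 (limma adjusted p = 0.00115). The mitoferrins Slc25a37 and Slc25a28, which import iron, fell by 0.42 ± 0.10 and 0.30 ± 0.09 (adjusted p = 0.0142 and 0.045), the latter named after its values were seen. Leaving out 1 library ended the call of Slc25a37 for 3 libraries of ZT22 (adjusted p up to 0.0636), and 12 of 18 alternatives ended that of Slc25a28, the replicate block and median-of-ratios scaling included (up to 0.17). Tspo, an outer membrane protein that binds porphyrins, fell by 0.59 ± 0.12 (adjusted p = 0.00457); the calls of Slc25a39 and Tspo at ZT22 held under all 18. Slc25a37 was lower at ZT10 too, by -0.39 ± 0.10, and rose from ZT10 to ZT22 in WT and KO by 0.73 ± 0.10 and 0.70 ± 0.10 (adjusted p = 0.000645 and 0.000243). Flvcr1, a transporter first described as a haem exporter, fell from ZT10 to ZT22 in WT by 1.08 ± 0.23 (adjusted p = 0.00563).

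At ZT10, 1 gene of this list was higher and 4 lower in KO, beside 5.36% and 8.96% of all genes tested. This count fell to 1 and 0 when only the groups compared were fitted, and to 1 and 1 under median-of-ratios scaling. The higher one, named after its values were seen, was Clpx, the mitochondrial unfoldase that acts on aminolevulinate synthase. It rose from 22.6 to 48.4 FPKM, by 0.99 ± 0.21 (limma adjusted p = 0.00667). The KO libraries of ZT10 read 32.3, 43.5 and 69.4 FPKM, and leaving out 1 library gave differences of 0.70 to 1.24. At ZT22 Clpx stood 0.58 ± 0.21 higher without passing (limma adjusted p = 0.0678). Between times, 1 was higher and 4 lower in WT, beside 18.4% and 5.77% of all genes, and 2 were higher and 9 lower in KO, beside 28.9% and 13.7%. The WT count was 1 and 7 under median-of-ratios scaling. Fam210b, a mitochondrial protein needed for iron supply to haem in red cells, rose at ZT22 in KO by 0.81 ± 0.15 (adjusted p = 0.00104).

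**Figure D5:**
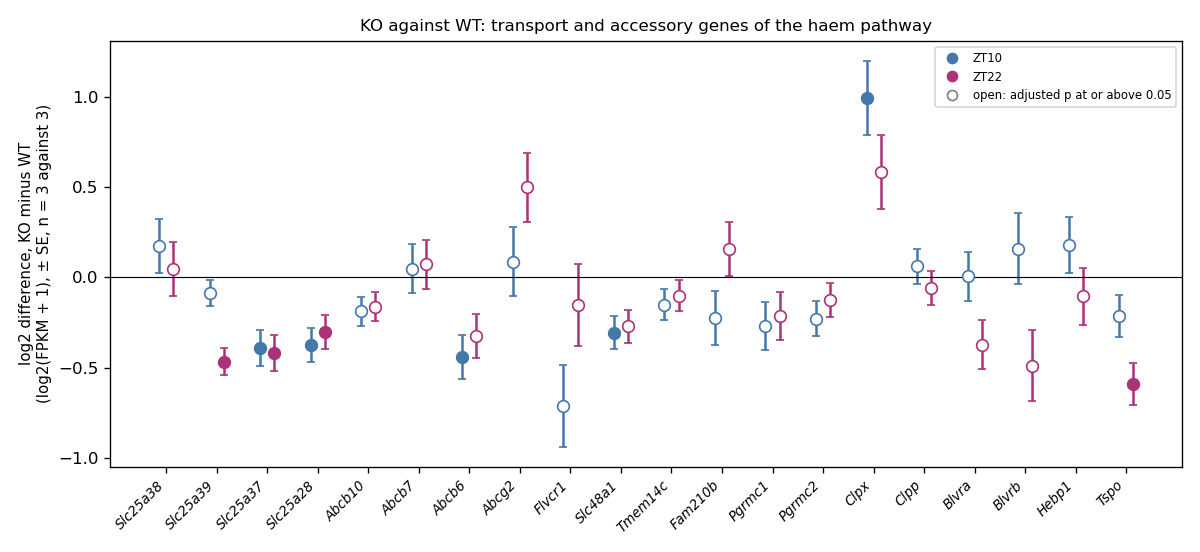
Log2 difference of KO minus WT (log2(FPKM + 1), ± SE, n = 3 against 3) at ZT10 and ZT22 for the 20 tested transport and accessory genes of the wider list. Filled points passed an adjusted p under 0.05. Clpx is the highest point, at 0.99 at ZT10, and Slc25a39, Slc25a37, Slc25a28 and Tspo lie below 0 at ZT22.

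Genes of haem proteins, of haem attachment and haem A synthesis, and of partner subunits and reductases made a list of 15, all tested. In KO against WT 0 were higher and 1 lower at ZT10, beside 5.36% and 8.96% of all genes tested. At ZT22 0 were higher and 6 lower, beside 7.13% and 11.2%, with a list median of -0.07. The single call at ZT10 was lost under most alternatives, and the 6 became 3 without WT replicate 2 or KO replicate 3 of ZT22. Cyc1, cytochrome c1 of respiratory complex III, fell from 388 to 274 FPKM at ZT22, by 0.50 ± 0.08 (limma adjusted p = 0.00181), and Sdhd, a membrane anchor of complex II, by 0.48 ± 0.10 (adjusted p = 0.00767). Myoglobin (Mb) stood at 4654 FPKM in WT and 6569 in KO at ZT10 and at 3593 and 3872 FPKM at ZT22, and neither difference passed (0.49 ± 0.18 and 0.09 ± 0.18, adjusted p = 0.0871 and 0.767). Between times 0 were higher and 3 lower in WT, beside 18.4% and 5.77% of all genes, which became 1 to 6 calls when a library was left out. In KO 2 were higher and 6 lower, beside 28.9% and 13.7%. The Rieske iron-sulfur subunit of complex III, Uqcrfs1, which carries no haem, fell by 0.37 ± 0.09 in WT and by 0.71 ± 0.09 in KO (adjusted p = 0.0112 and 0.000101). Por, the reductase that feeds electrons to heme oxygenase, fell by 0.56 ± 0.19 and by 0.82 ± 0.19 (adjusted p = 0.0492 and 0.00427), of which 9 of 18 alternatives ended the call in WT (up to 0.13). Cyb5b, a cytochrome b5 of the mitochondrial outer membrane, rose by 0.46 ± 0.11 in KO (adjusted p = 0.0043). With the length trend removed the difference was 0.21 and the call was lost (adjusted p = 0.16).

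Of 17 iron-handling genes 16 were tested. In KO against WT 1 was higher and 2 lower at ZT10 (5.36% and 8.96% of all genes tested), and 0 higher and 2 lower at ZT22 (7.13% and 11.2%). Hfe, which regulates iron uptake through the transferrin receptors and hepcidin, fell from 13.7 to 6.38 FPKM at ZT10 and from 12.2 to 4.30 FPKM at ZT22, by 1.00 ± 0.13 and by 1.31 ± 0.13 (limma adjusted p = 0.000285 and 3.9e-05). Nfs1, the cysteine desulfurase of iron-sulfur cluster assembly, rose at ZT10 by 0.38 ± 0.08 (adjusted p = 0.00914; 0.0698 when only the groups compared were fitted). Between times 3 were higher and 1 lower in WT (18.4% and 5.77% of all genes), and 3 higher and 5 lower in KO (28.9% and 13.7%). The ferritin light chain Ftl1 fell by 0.85 ± 0.19 and by 0.86 ± 0.19 in WT and KO (adjusted p = 0.0089 and 0.00386). Ireb2, an iron regulatory protein, rose by 0.29 ± 0.08 and 0.68 ± 0.08 (adjusted p = 0.0252 and 9.23e-05), of which the call in WT was ended by 6 of 18 alternatives, the length trend among them (adjusted p up to 0.932). The ferroxidase Cp rose by 0.55 ± 0.15 and 0.63 ± 0.15 (adjusted p = 0.0225 and 0.00587), and 4 of 18 alternatives ended its call in WT (adjusted p up to 0.0955).

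Regulators of haem genes numbered 14, all tested, and the list holds the targeted Nr1d1 and Nr1d2. Npas2 is left out of the calls listed here, for the reason given below. In KO against WT Nr1d1 was higher and 1 gene lower at ZT10, beside 5.36% and 8.96% of all genes tested. At ZT22 Nr1d1 and Nr1d2 were higher and 0 lower, beside 7.13% and 11.2%. Npas2, a haem-binding partner of BMAL1, stood at 0.0800, 0.0800 and 0.120 FPKM in WT and 2.90, 2.44 and 2.43 FPKM in KO at ZT10. At ZT22 it stood at 0.810, 0.840 and 0.560 FPKM in WT and 7.38, 7.66 and 6.53 FPKM in KO. Both WT groups lay below 1 FPKM, so Npas2 passed the filter on low values only through the libraries labelled KO, and its values are given as a description with no test. Bach1, the haem-sensing repressor of Hmox1, fell at ZT10 by 0.95 ± 0.17, from 9.14 to 4.26 FPKM (limma adjusted p = 0.00246), and differed by 0.01 ± 0.17 at ZT22. The test of that change between times gave 0.95 ± 0.24 (adjusted p = 0.0995). Between times, again without Npas2, Nr1d1 was higher and 1 gene lower in WT (18.4% and 5.77% of all genes). The call of Nr1d1 was ended by 6 of 18 alternatives. In KO Bach1, Mafg and Ppargc1b were higher and 0 lower (28.9% and 13.7%). With the length trend removed the call of Bach1 was lost (adjusted p = 0.154). Mafg, a small MAF partner of BACH1 and NRF2, rose in KO by 0.46 ± 0.12, and the coactivator Ppargc1b by 0.66 ± 0.24 (adjusted p = 0.00985 and 0.0432). For Ppargc1b 10 of 18 alternatives ended the call (adjusted p up to 0.16).

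NRF2 is the oxidant-responsive factor that also acts on Hmox1, and 8 of 9 listed target genes were tested. In KO against WT 2 were higher and 2 lower at ZT10, where the shares of all genes tested were 5.36% and 8.96%. At ZT22 3 were higher and 0 lower, beside shares of 7.13% and 11.2%. The quinone reductase Nqo1 rose from 12.8 to 52.2 FPKM at ZT10 and from 9.65 to 35.2 FPKM at ZT22, by 1.78 ± 0.29 and 1.76 ± 0.29 (limma adjusted p = 0.00136 and 0.00142). The KO libraries of ZT10 read 30.25, 36.60 and 89.64 FPKM. Leaving out 1 library gave differences of 1.31 to 2.08 at ZT10. Malic enzyme (Me1) rose by 0.45 ± 0.08 and 0.70 ± 0.08 (adjusted p = 0.00366 and 0.000176). Thioredoxin reductase (Txnrd1) and sulfiredoxin (Srxn1) fell at ZT10, by 0.76 ± 0.14 and by 1.00 ± 0.29 (adjusted p = 0.00372 and 0.0369). The call of Srxn1 was ended by 6 of 18 alternatives (adjusted p up to 0.146). Between times 0 were higher and 1 lower in WT, beside 18.4% and 5.77% of all genes, and 2 higher and 1 lower in KO, beside 28.9% and 13.7%. Gsta4, a glutathione transferase, fell by 0.60 ± 0.15 and by 0.62 ± 0.15 (adjusted p = 0.0116 and 0.00477; in WT up to 0.0554 when a library was left out), and Gclm, a subunit of glutathione synthesis, rose in KO by 0.65 ± 0.17 (adjusted p = 0.00856).

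The profiles most like each called member were found as the smallest root mean square (RMS) difference of centred log2(FPKM + 1) over the 12 libraries. For Alas1, whose own RMS deviation was 0.36, these were adenosine kinase (Adk) and the mitochondrial pyruvate carrier subunit Mpc1, both at 0.13, and Gsta4 at 0.15. For Alad (0.31) they were Fuz, Tbc1d17 and Dmap1 at 0.10, 0.11 and 0.12, and for Urod (0.22) Wdr24, Rab1b and Chmp6 at 0.06, 0.07 and 0.07. Uros (0.28) was nearest to Cops3, Derl1 and Spcs2 at 0.08, 0.09 and 0.10, and Fech (0.14) to Taf6, Trappc10 and Prdx1 at 0.05, 0.07 and 0.07. Beyond the called members, looked up after their values were seen, Alas2 (0.46) was nearest to Zfp36 and the globins Hbb-bs and Hbb-bt at 0.23, 0.26 and 0.28. Hmox1 (0.50) was nearest to the NRF2 target Srxn1 at 0.25. Likeness over 12 libraries is a description of level and says nothing of shared control.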

How the data were processed

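Per the labels' protocols, RNA came from frozen muscle by Trizol and column extraction. HISAT2, HTSeq, DESeq2 1.8.2, GRCm38 and mm10 are named, without roles, per the submitters' processing notes; neither the annotation nor a strand setting is given in the sources used here. A table of FPKM per library was deposited (unit read from the values: FPKM times annotated length in kb summed to 1004853 to 1065797 per library), with the authors' own log2 fold changes and p-values and q-values for 4 comparisons.

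The table had 14583 entries, of which 82 were empty and 230 repeated another; Plin2 had 2 differing entries and the higher was used. Groups were taken from titles. The test was limma 3.58.1 (R 4.3.3) on log2(FPKM + 1) for genes averaging 1 FPKM or more, with 1 mean per group, 12 libraries and an intensity trend, adjusted over all genes tested. Depth, read roughly from the spacing of low FPKM values, was 10.94 to 13.7 times 1000000 fragments per library. Whole steps were only weakly visible (mean cosine 0.308 to 0.46), so the estimate is rough and no interval was drawn from it. Positions came from GENCODE M21 (14081 genes matched by symbol). The fit was tested on simulated data. Other steps used Python 3.11.15, pandas 2.3.3, numpy 2.4.6 and, for plots, matplotlib 3.10.9.

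The members and gene lists were chosen with earlier results of these data known. Named were the 9 members, up to 6 called genes per list by smallest adjusted p, the 3 nearest profiles of each called member, and Nr1d1, Nr1d2 and Arntl. Some genes that the rule names are not reported here. Alternatives were a pseudocount of 0.1, no filter, only the groups compared, a block for the replicate number, median-of-ratios scaling and leaving out each library; removal of a transcript length trend (lowess, span 0.3) was chosen after seeing the data. Tests for counts were not run, since the table holds FPKM.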

Additional observations from a re-analysis of the deposited data

How the results depend on the processing

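The calls of Alas1, Alad, Urod and, at ZT10, Uros held under all 18 alternatives tried. The number of haem genes called in KO against WT at ZT10 was 2, and 1 when only the groups compared were fitted. Leaving out 1 library gave 1 to 2 at ZT10 (1 without WT_ZT10 replicate 2, KO_ZT10 replicate 2 or KO_ZT10 replicate 3), 2 to 4 at ZT22 (main 4; 2 without WT_ZT22 replicate 2 or KO_ZT22 replicate 2), 1 to 2 for time in WT (main 1; 2 without WT_ZT10 replicate 1) and 3 for time in KO. Directions turned only for differences that did not pass. With a pseudocount of 0.1 Alas2 between times in KO was 0.0062. Median-of-ratios scaling gave Cpox between times in KO -0.00014, Fech between times in WT -0.10, Hmox1 between times in KO -0.012 and Hmox2 between genotypes at ZT10 0.041. With the length trend removed these were -0.027 for Cpox in KO and -0.075 for Fech in WT, and Hmox2 was 0.029 between genotypes at ZT22 and 0.030 for the change of that difference between times. Leaving out 1 library turned further such values. Between genotypes, Alad at ZT10 ranged from -0.016 to 0.11, Urod at ZT10 from -0.0052 to 0.087, Hmox1 at ZT22 from -0.19 to 0.33, Hmox2 at ZT10 from -0.11 to 0.11 and Hmox2 at ZT22 from -0.16 to 0.014. Between times, Alas2 in KO ranged from -0.18 to 0.21, Fech in WT from -0.042 to 0.071 and in KO from -0.041 to 0.034, Hmox1 in KO from -0.20 to 0.32 and Hmox2 in WT from -0.13 to 0.045. For the change of the genotype difference between times, Alas1 ranged from -0.062 to 0.22, Uros from -0.19 to 0.027, Fech from -0.078 to 0.034 and Hmox2 from -0.17 to 0.046. The causes of these turns were not tested.

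With the replicate number as a block, 2 and 4 haem genes were called in KO against WT at ZT10 and ZT22, and 1 and 3 between times in WT and KO, and the block changed no call of the 9 genes. Deviations from the group means were correlated between libraries of different groups. For the 18 pairs with the same number the correlations ranged from -0.13 to 0.21, most of them above 0, and 2 were over 0.1. For pairs with different numbers they ranged from -0.20 to 0.13. Whether libraries with the same number were paired was not tested. There were 91 calls of Arntl and of genes on the further lists, Npas2 included. Npas2 passed the filter only through the libraries labelled KO, and its calls are all among those that held. Of the 91 calls, 49 held under every alternative run, 42 were lost under 1 or more, and none turned direction. The replicate block ended 4 of them (those of Sdhc between times in KO, Sdhd between times in WT, Slc25a28 at ZT22 and Slc48a1 at ZT10). The counts of called genes per list moved by over 1.5 times, or to or from 0, in 43 cases and stayed in 257 when a library was left out. These cases include the change of the genotype difference between times, for which every list had 0 calls to begin with. The list counts moved in 6 cases with only the groups compared, 3 with median-of-ratios scaling, 2 without the filter, 2 with the length trend removed and 1 with the pseudocount of 0.1. Tests for counts, their size factors and a filter on counts were not run, since the table holds FPKM. Depth limits Alas2 and Hmox1 most, which rested on at least about 22.1 and 65.5 fragments per library.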

Other observations

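The authors' deposited table gave log2 fold changes of 0.67 and 0.48 for Uros and 0.33 and 0.25 for Fech in KO against WT at ZT10 and ZT22. At ZT10 its q-value was 0.0125 for Uros and 0.0651 for Fech, so Fech, called by limma at ZT10, was not under 0.05 there. At ZT22 the authors' deposited table had Alad at -0.57 and Urod at -0.46. Its q-values for KO against WT were under 0.05 for 6.80% of entries at ZT10 and for 54.8% at ZT22, against 14.5% and 20.9% for time in WT and KO. In the ZT22 column of the authors' deposited table the highest q-value was 0.444 while the highest p-value was 1, so some q-values lay below their p-values; for Alas2 the p-value was 0.225 and the q-value 0.15. For Alas1 at ZT22 the authors' deposited table gave a log2 fold change of 0.28 with a q-value of 1.93e-20, where limma gave an adjusted p of 0.213. For time in WT the authors' deposited table had Hmox1 at -1.13 with a q-value of 0.00563 and Alas2 at -1.12 with a q-value of 0.0492, where limma called neither gene. The sources used here do not give the model behind these values.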
